A study of Drosophila melanogaster with 14 samples.

Results

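A fused LAD is a single lamina-associated domain of *Drosophila* spermatocytes (SpCs) that spans several separate LADs of spermatogonia (SpG). Fused LADs were taken as the SpC LADs on 2L, 2R, 3L and 3R, without the heterochromatic scaffolds, that overlap at least 3 SpG LADs and have less than 90% of their length covered by them. Members were thus chosen by the LAD positions of both stages, which are the main measurement. The rule found 333 of the 5248 SpC LADs on these arms (6.35%), out of 8698 SpC LADs in the whole list. The stretches of a fused LAD that lie between neighbouring SpG LADs are called filled gaps below, and there were 871 of them.

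The nuclear lamina is a meshwork of lamins under the inner nuclear membrane. LADs, the chromatin segments in contact with it, hold mostly silent or weakly transcribed genes, and they are mapped by DamID, in which a Dam methylase joined to a lamin marks the nearby DNA. In the fly testis, SpG divide by mitosis and then become primary SpCs, which grow during a long prophase and switch on a large set of genes used nowhere else. Many of these genes need Aly, a component of the testis meiotic arrest complex.

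Dam was expressed with or without a fusion to Lam Dm0, the B-type lamin of the fly, in both kinds of cells. For SpCs, testes of larvae of the third instar carried *pUAST-attB-LT3-Dam-Lam* or *pUAST-attB-LT3-Dam* with *bam-Gal4-VP16*, a driver that acts from late SpG and is strongest in early and mid primary SpCs. For SpG, testes of adult *bamΔ86*/*bamΔ86* males, in which the germline cells do not leave the mitotic stage, carried a *pUAST-attB* construct with *nos-Cre*, in which an *hsp70* promoter and a *loxP-stop-loxP* cassette stand before *Dam-Lam* or before *Dam*. There were 2 replicates of each of these 4 groups, of many pooled testes each. The stage, the construct, the driver, the *bam* genotype and the age of the males changed together, so that their parts in a difference between the 2 maps cannot be told apart. RNA-seq of larval testes comprised 3 Lam-KD libraries, with *UAS-LamC-RNAi/+* together with *UAS-LamDm0-RNAi/bam-Gal4-VP16*, in which both lamins were knocked down from late SpG on, and 3 control libraries with *bam-Gal4-VP16* alone, with between 5651960 and 7437111 expected reads each. Expected reads of *Lam*, the gene of Lam Dm0, were between 370 and 440 in Lam-KD libraries and between 1569 and 2117 in controls.

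LADs were called by the authors once per stage, on merged replicates and in bins of 300 bp. The lists hold positions without a score or a value per replicate, so that differences between the maps are given as descriptions without a test, and a boundary is known no better than to 1 bin.

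Fused LADs were long. Their length was between 3.6 and 70.8 kb with a median of 19.2 kb, whereas the median of all SpC LADs on the 4 arms was 5.1 kb. Together they made up 7.582 Mb, or 18.4% of the SpC LAD length of these arms. Since the overlap with 3 SpG LADs needs room, the length is partly set by the rule: 4 of the 2989 SpC LADs of up to 6 kb were fused (0.134%), against 108 of the 257 LADs between 24 and 48 kb (42.0%). For comparison, the 908 SpC LADs over 2 SpG LADs had a median length of 10.5 kb, the 3279 over a single SpG LAD had 4.2 kb, and the 651 without any SpG LAD under them had 0.9 kb.

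Most fused LADs joined few SpG LADs. There were 209 (62.8%) over 3 SpG LADs, 75 over 4, 31 over 5, 10 over 6, 4 over 7, 3 over 8 and 1 over 10. The merged SpG LADs had a median length of 3.9 kb, close to the 3.6 kb of all SpG LADs on these arms, and 53 of these 1195 distinct SpG LADs were 1 bin long (4.44%, against 7.20% of all SpG LADs).

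The part of a fused LAD that was already LAD in SpG varied widely, between 18.6% and 89.5% with a median of 69.7%. Of the summed length, SpG LADs made up 68.7%, filled gaps 23.7% (1798 kb) and the stretches beyond the outermost SpG LAD 7.59% (575.7 kb). Of the 666 ends, 245 lay beyond the outermost SpG LAD, by a median of 1800 bp and by 13.5 kb at most. At 328 ends the SpG LAD reached farther than the fused LAD, by a median of 2400 bp, and 93 ends fell on the same bin at both stages. At the outer ends, the SpG LAD thus reached farther more often than the fused LAD did.

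At the limit of 90%, the members nearest to it were chr3L:1688101-1756800 with 89.5% of its 68.7 kb covered and chr3R:17745301-17753700 with 89.3% of its 8.4 kb. Just outside lay chr3L:19137601-19143600 with exactly 90% of its 6.0 kb covered and chr2L:7676701-7708200 with 90.5% of 31.5 kb. In all, 77 further SpC LADs overlapped 3 or more SpG LADs with at least 90% covered. Their median length was 27.9 kb, and their 192 gaps had a median of 300 bp, with 69.8% of 1 bin. A coverage of at least 90% leaves little room for gaps, so that their shortness is partly set by the rule.

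The fused LAD with the most SpG LADs was chr2L:2809801-2855400, in which 10 SpG LADs were joined into 45.6 kb. It had 9 filled gaps of 0.3 to 3.0 kb, 11.4 kb in all, and the SpG LAD at its left end went on for another 21.3 kb outside it. *Duox*, the gene of the dual oxidase that makes reactive oxygen species in the fly gut, lies inside it with a run of small genes on its right. On 2L, chr2L:13950601-13992300 joined 8 SpG LADs over the cluster of *nimrod* genes, chr2L:4471801-4535400 joined 7 over the start of the transporter gene *ine* and a part of *dp*, and chr2L:5116501-5160900 joined 7 inside *Msp300*. On 2R, chr2R:18896101-18942600 joined 8 SpG LADs and chr2R:11586301-11617800 joined 7. On 3R, chr3R:20498701-20556000 joined 8 and chr3R:21093901-21150000 joined 7. Among these 8 domains, the longest filled gap was the 8.1 kb of chr3R:20498701-20556000, which had no gap of 1 bin, whereas 4 of the 7 gaps of chr2R:18896101-18942600 were of 1 bin.

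**Figure D1:**
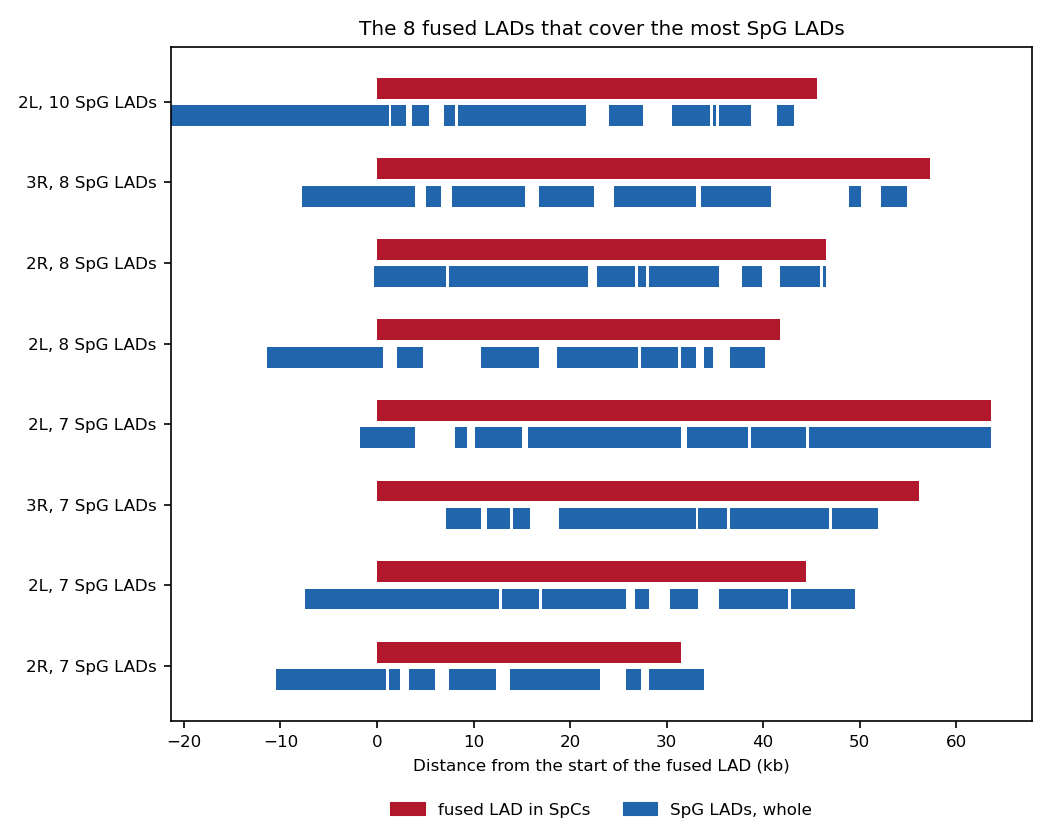
The 8 fused LADs over the most SpG LADs, to scale: each red bar is the fused LAD in SpCs and the blue bars under it are the SpG LADs in full length, against the distance from the start of the fused LAD in kb. White spaces between blue bars are the filled gaps, of at most 8.1 kb here, and in the domain over 10 SpG LADs the left SpG LAD reaches 21.3 kb out of the fused LAD.

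Filled gaps were mostly short, but few long ones held most of the length. The gaps were between 0.3 and 14.7 kb, with a median of 1500 bp and an upper quartile of 3000 bp. Gaps of 1 bin numbered 278 (31.9%), but amounted to 83.4 kb, or 4.64% of the filled length. On the contrary, the 195 gaps over 3 kb (22.4%) held 57.4% of it. A fused LAD had between 0.6 and 20.1 kb of filled gaps, with a median of 4.5 kb.

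The study states that its HMM left gaps over bins with no mapped Dam reads, which bears on gaps of 1 bin. Whether SpG and SpCs differ in such bins could not be seen in the LAD lists, and their part in the filled gaps was not tested. Of the 333 fused LADs, 13 (3.90%) had gaps of 1 bin only, 135 had no gap of 1 bin, and 165 (49.5%) had a gap over 3 kb. When SpG LADs up to 300 bp apart were first joined, 201 of the 333 still met the rule. Of the 2005 gaps of 1 bin between SpG LADs on the 4 arms, 132 (6.58%) were the same gap of 1 bin in SpCs.

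The longest filled gaps were 2 stretches of 14.7 kb, chr2L:3535501-3550200 and chr3L:13066801-13081500, followed by chr3L:6237001-6251400 with 14.4 kb. Next came chr2L:7007101-7020300 with 13.2 kb, chr2L:4344901-4357800 and chr2R:4455001-4467900 with 12.9 kb each, chr3R:9160801-9172800 with 12 kb and chr2L:18487801-18498300 with 10.5 kb. These wide inter-LADs of SpG thus lay inside SpC domains of between 22.5 and 41.7 kb. The domains with the least SpG coverage were chr3L:23418901-23431800 with 18.6%, chr2L:18484201-18512100 with 22.6% and chr3R:16473301-16502100 with 22.9%.

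The same rule was also applied with the stages exchanged. It found 231 split SpG LADs of 8158 (2.83%), that is, SpG LADs over 3 or more SpC LADs with less than 90% covered. The ratio of fused SpC LADs to split SpG LADs was 1.44, and it was 2.27 when LADs up to 300 bp apart were joined at both stages first, with 291 fused and 128 split LADs. The lists differ in size, with 8158 SpG LADs against 5248 SpC LADs on these arms, and a longer list offers more LADs to cover. The study also reports that LADs cover less of the genome in SpCs than in SpG. The ratio thus does not tell which direction prevails between the stages. The gaps opened in split SpG LADs were shorter than the filled gaps: their median was 300 bp, 52.8% of the 597 were of 1 bin, and 10.9% were over 3 kb, against 22.4% of the filled gaps. In sum they made up 809.7 kb, against 1798 kb of filled gaps.

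**Figure D2:**
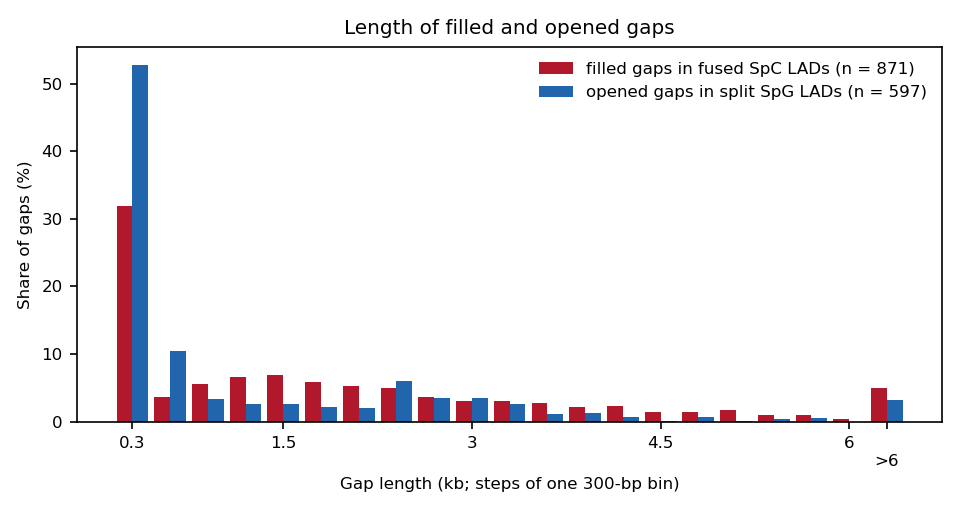
Share of gaps (%) by length in steps of 300 bp, with all gaps over 6 kb in the last column, for the 871 filled gaps of fused SpC LADs (red) and the 597 opened gaps of split SpG LADs (blue). Single-bin gaps make up 31.9% of the filled and 52.8% of the opened gaps.

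The arms differed in the number of fused LADs. Most were on 3R, with 121 (7.97% of its SpC LADs, 4.34 per Mb), then 74 on 2R (6.12%), 70 on 3L (5.19%) and 68 on 2L (5.81%), where the densities were between 2.86 and 3.51 per Mb. On 3R they held 22.0% of the SpC LAD length. With each arm divided into 3 stretches of equal length, 5.87%, 8.57% and 9.04% of the SpC LADs of 3R were fused, from the left stretch to the right. On 3L the shares were 5.17%, 7.34% and 3.56% in the same order.

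Fused and split LADs were also counted per arm and on the X chromosome. Fused LADs outnumbered split ones on each of the 4 arms, with ratios of 1.73 on 3R, 1.55 on 2L, 1.30 on 3L and 1.17 on 2R. On the X, 59 of the 2397 SpC LADs met the rule for fused LADs (2.46%), against 109 SpG LADs that met the rule for split ones, a ratio of 0.541. After LADs up to 300 bp apart were joined, the X had 53 fused and 52 split LADs, so that the excess of split LADs was no longer seen there. The X is single in male cells, whereas autosomes are present as pairs, and the part of this in the X counts was not tested.

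**Figure D3:**
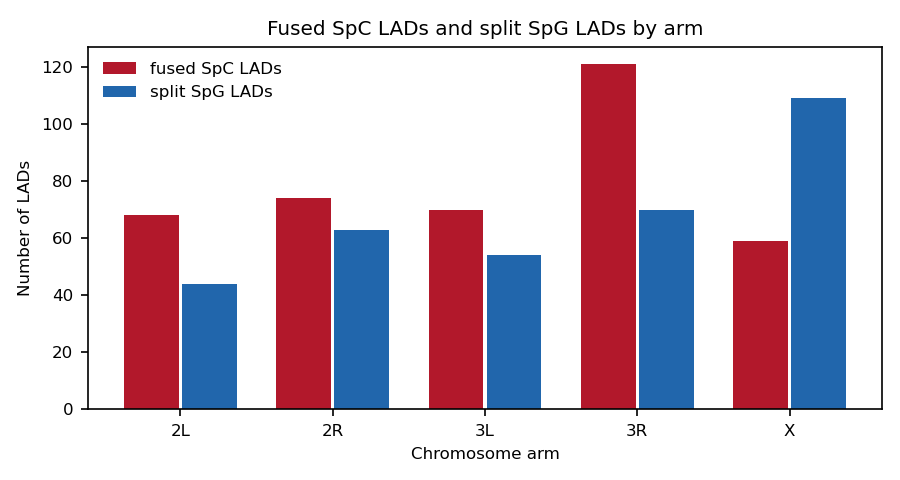
Number of fused SpC LADs (red) and of split SpG LADs (blue) on each chromosome arm, each bar being a count without replicates. Fused LADs are more numerous on 2L, 2R, 3L and 3R, most of all on 3R (121 against 70), and less numerous on the X (59 against 109).

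Filled gaps were then set beside all gaps between SpG LADs on the 4 arms. Of the 8154 gaps, 2196 (26.9%) lay wholly inside a SpC LAD, and 871 of these were in fused LADs. The share fell with length: 42.9% of the gaps of 1 bin were filled (95% Wilson interval 40.7 to 45.1%), 33.6% of those of 0.6 to 1.5 kb, 34.5% of those of 1.8 to 3 kb, 22.4% of those of 3.3 to 6 kb and 4.04% of longer ones (3.27 to 4.99%). The intervals cover counting error only. A gap counted as filled only if it lay wholly inside a SpC LAD, and the median SpC LAD of these arms was 5.1 kb long. A fall with gap length is thus partly set by the measure. Of all gaps of 600 bp or longer, 21.7% were filled on the autosomal arms (20.7 to 22.8%), against 12.5% on the X (11 to 14.1%). For gaps of 1 bin the X had 42.7%, close to the autosomal arms. SpC LADs were shorter on average on the X, with 2397 in 9333.6 kb, against 5248 in 41181.9 kb on the 4 arms. A shorter LAD has less room for a whole gap, and the part of this in the lower share of longer gaps filled on the X was not tested. Conversely, of all 5244 gaps between SpC LADs, 1748 (33.3%) lay wholly inside a SpG LAD, a larger share than the 26.9% above. This was so for 19.5% of the SpC gaps of at least 600 bp and for 63.6% of those of 1 bin.

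**Figure D4:**
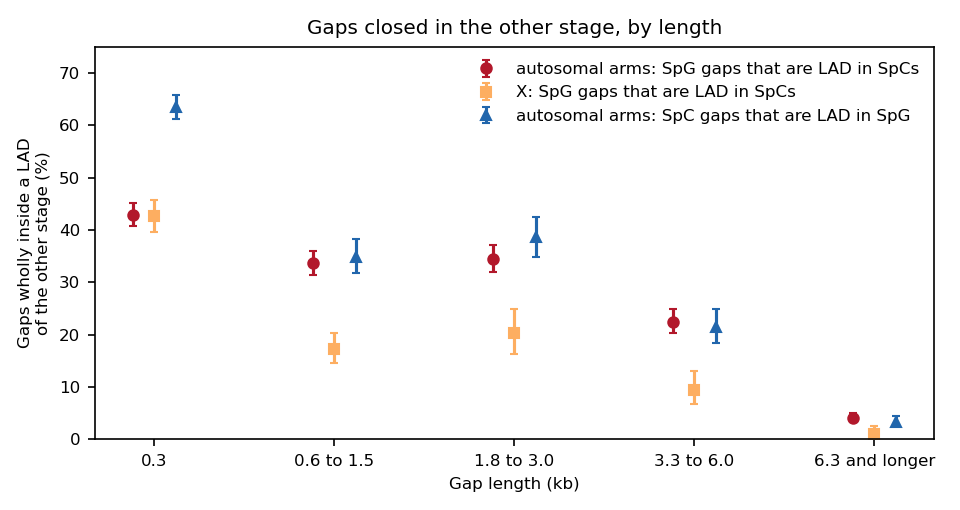
Share (%) of gaps that lie wholly inside a LAD of the other stage, by gap length in kb, with 95% Wilson intervals: gaps between SpG LADs that are LAD in SpCs on the autosomal arms (red circles) and on the X (orange squares), and gaps between SpC LADs that are LAD in SpG on the autosomal arms (blue triangles). For gaps of 0.6 to 1.5 kb the shares of filled SpG gaps are 33.6% on the autosomal arms and 17.2% on the X.

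Gene positions on the build of the LADs (dm3/R5) were taken from the study's gene table, of which the copy used covers 1998 genes over 16.7 Mb of 2L, and genes of the other arms were not analysed here. Within its reach lay 57 of the 68 fused LADs of 2L and 160 of their 186 filled gaps. Of these gaps, 34 held a transcription start site (TSS), 92 lay within a single gene away from its TSS, 3 touched a gene in part and 31 were free of listed genes. The share of other gaps, or of 2L as a whole, that lies within genes is not given here. These counts thus do not tell whether filled gaps favour genes. A TSS was present in 2 of the 55 gaps of 1 bin (3.64%) and in 4 of 40 between 0.6 and 1.5 kb (10.0%). It was present in 11 of 34 between 1.8 and 3 kb (32.4%), 12 of 24 between 3.3 and 6 kb (50%) and 5 of 7 longer ones (71.4%). A longer gap has more room for a TSS, so that a rise with gap length is partly set by length itself. These shares are per gap and do not tell whether TSSs are denser in longer gaps. Filled gaps had 13.1 TSSs per 100 kb, the SpG LAD parts of the fused LADs 8.52, and all of 2L 11.9. All other gaps between SpG LADs had 17.8, and those of at least 600 bp, but no longer than the longest filled gap, had 11.

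On 2L, 12 genes had at least 3 filled gaps over them, whole or in part, and the lengths given next are the parts of these gaps inside the gene. *CG42784* (85.0 kb) had 7 in 2 fused LADs, with 10.8 kb. *dp* (136.8 kb), which encodes a giant protein of the apical extracellular matrix, had 6 in chr2L:4471801-4535400, with 5.14 kb of filled gaps inside the gene, and its TSS lies farther right, in a SpG LAD part of another fused LAD, chr2L:4609201-4641900. *Msp300* (106.1 kb), the gene of a nesprin that links nuclei to the cytoskeleton, had 6 with 6.0 kb. *uif*, the gene of a large transmembrane protein with EGF repeats, had 4 with 4.76 kb, *Ance-3*, related to angiotensin-converting enzymes, 4 with 4.99 kb, *Apoltp*, which encodes a lipoprotein, 4 with 2.93 kb, and *Tsp*, the gene of thrombospondin, 4 with 3.49 kb. *pdm2*, a POU factor gene with its TSS in an inter-LAD of both stages, had 3. *Msp300* had a mean of 19.2 TPM in control testes and *Tsp* 49.6 TPM, whereas *dp* had 0.771 TPM and *CG42784* 0.693 TPM.

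The TSSs of 41 genes lay in filled gaps, in 29 fused LADs. By the classes of the study's table, 5 of them were SpC-specific and Aly-dependent (12.2%, 95% Wilson interval 5.32 to 25.5%; 8.26% of all listed 2L genes), 1 was SpC-specific and Aly-independent, 3 were ubiquitous (7.32%, 2.52 to 19.4%; 29.3% of all), 0 were testis-specific genes that start in SpG (2.15% of all), and 32 were in none of these classes. As the table is incomplete, no overlap was tested. Of these genes, 27 (65.9%) had a mean control TPM over 1, against 75.7% of all 1998 listed genes, and 9 (22.0%) were over 100 TPM, against 20.5% of all. So a TSS in a stretch that is LAD in the SpC map, but not in the SpG map, was found for silent and for highly expressed genes alike. The RNA came from whole larval testes, whereas the study describes Dam-Lam marking as strongest in early to mid SpCs. For Aly-dependent genes it proposes that such marks may persist after the gene has left the lamina. A LAD in the SpC map therefore need not mean contact while the gene is expressed, which was not tested here.

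Levels are given as TPM, a measure per transcript length. The median level of the 41 genes in controls was 5.62 TPM, with 5.99, 5.21 and 5.65 TPM in the single libraries. Genes of the SpG LAD parts of the same domains had a median of 2.73 TPM, genes of LADs of both stages outside fused LADs 1.83 TPM, and genes of inter-LADs of both stages 21.9 TPM. Genes that were in LADs of SpCs only, outside fused LADs, had 0.965 TPM, and genes in LADs of SpG only had 3.27 TPM. The value of the gap genes rests on a small list with a wide spread: it was 3.39 TPM for the 39 genes in gaps of 600 bp or longer. RNA came from whole testes, in which fewer cells of a type and less RNA per cell cannot be told apart.

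The Aly-dependent genes with a TSS in a filled gap were *CG18132*, *CG18558*, *CG31960*, *CG15429* and *Ref2*. *CG31960* had 232, 231 and 267 TPM in Lam-KD libraries and 271, 265 and 325 TPM in controls. Its TSS lies in a gap of 1.8 kb inside chr2L:3774001-3802200, a fused LAD over 5 SpG LADs. *CG15429*, in the 12.9-kb gap of chr2L:4338901-4361400, had 74.2, 76.2 and 81.7 TPM in Lam-KD and 98.5, 90.7 and 129 TPM in controls. The groups did not overlap for this gene, but the ratio of means stayed under the threshold of 1.5 (log2 fold change -0.54, SE 0.16, edgeR adjusted *P* = 0.0486), so that it was not called. *CG18132*, in a 2.4-kb gap, had 172, 165 and 198 TPM in Lam-KD and 158, 159 and 210 TPM in controls, with overlapping groups. *CG18558* lay in a gap of 1 bin of the domain over 10 SpG LADs and had 23.0 ± 0.544 TPM in Lam-KD and 20.4 ± 5.24 TPM in controls (mean ± SD, n = 3 each).

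*Ref2*, which encodes an RNA export factor of the REF family, lay in a 2.1-kb gap of a fused LAD with 86.0% covered. It had 148, 146 and 141 TPM in Lam-KD and 131, 136 and 98.8 TPM in controls. Its gene overlaps *nub* on the other strand, and whether the reads were counted by strand is not given in the sources used here. The single Aly-independent gene was *CG3347*, in a 1.8-kb gap of chr2L:3265501-3305100, with 60.7 ± 3.84 TPM in Lam-KD and 49.1 ± 10.9 TPM in controls (SD, n = 3 each). None of these 6 genes was called changed upon Lam-KD, as described below.

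The gap genes with the highest control levels, *CG42523* and *CG34160*, were outside the testis-specific classes, and the Aly-dependent *CG31960* came next. The study's testis-specific classes also require calls in testes on an RNA chip. A gene outside them is therefore not shown to be expressed in other tissues. *CG42523*, in a 6.0-kb gap of a domain with 32.0% SpG coverage, had 862, 849 and 980 TPM in Lam-KD and 1061, 970 and 1234 TPM in controls. *CG34160* had 393, 367 and 453 TPM in Lam-KD and 455, 442 and 583 TPM in controls. For both genes the highest Lam-KD library was above the lowest control. The 13.2-kb gap of chr2L:6998401-7024800 held 3 TSSs: those of the small genes *CG43321*, with 189 ± 22.6 TPM in Lam-KD and 230 ± 37.2 TPM in controls, and *CG43322*, with 61.8 ± 2.59 TPM in Lam-KD and 59.3 ± 9.26 TPM in controls (SD, n = 3 each), and that of *uif*, with 0.512 TPM in Lam-KD and 0.664 TPM in controls. Active and silent genes could thus share a filled gap.

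Other expressed gap genes were *CG15400* (now *G6P*, of glucose-6-phosphatase) with 170 TPM in controls, *Cks30A*, a partner of cyclin-dependent kinases, with 53.3 ± 1.10 TPM in Lam-KD and 50.6 ± 0.641 TPM in controls, and *Tsp* with 42.7 ± 1.98 TPM in Lam-KD and 49.6 ± 0.413 TPM in controls (SD, n = 3 each). *Tsp* passed the test (edgeR adjusted *P* = 0.0400), but not the fold threshold. The ubiquitous gap genes were *CG7337* (now *Wdr62*, of a spindle protein) with 27.8 TPM in controls, *Pvr*, the receptor of PDGF- and VEGF-related factors, with 2.98 TPM, and *Atet*, of an ABC transporter, with 1.96 TPM.

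**Figure D5:**
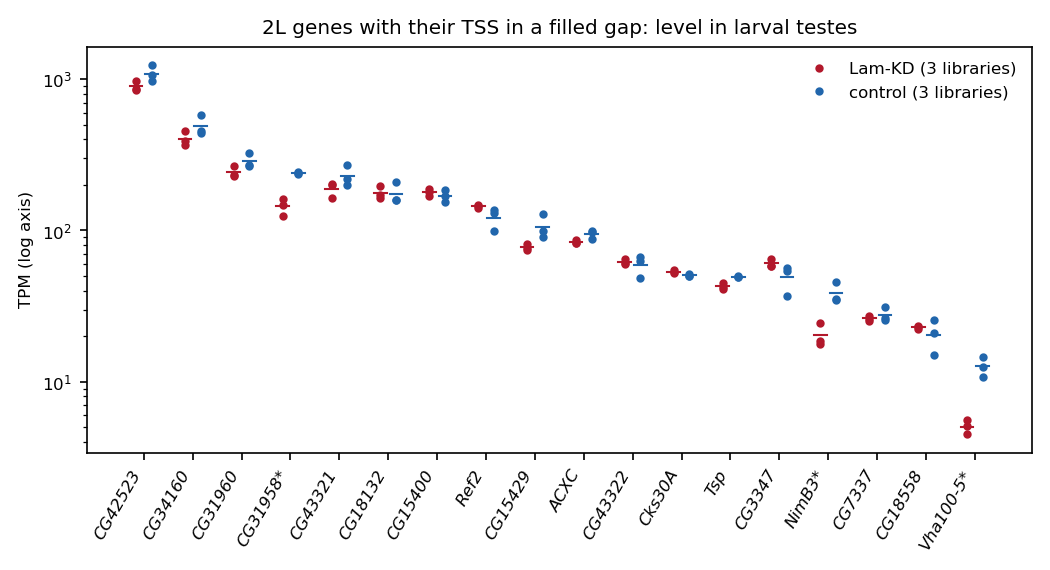
TPM (log axis) of the 2L genes with their TSS in a filled gap and a mean of at least 20 TPM in controls or a call upon Lam-KD, in order of the control mean: points are single libraries, short lines the mean of 3, Lam-KD in red left of control in blue. Asterisks mark the 3 called genes, *CG31958*, *NimB3* and *Vha100-5*, whose Lam-KD libraries all lie under the controls.

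Several genes of developmental regulators were among the gap genes, most of them with levels under 1 TPM. Of a list of 25 regulators on 2L, 6 had their TSS in a filled gap, 2 in the SpG LAD parts of fused LADs, 5 in LADs of both stages outside fused LADs, 2 in LADs of SpCs only, 2 in LADs of SpG only and 8 in inter-LADs of both stages. The list was chosen with earlier results of these data known and supports no enrichment. *drm*, of the *odd-skipped* family of zinc-finger genes, lay with its whole body in the 14.7-kb gap of chr2L:3534001-3563700. It had 0.667 ± 0.305 TPM in Lam-KD and 0.277 ± 0.168 TPM in controls (SD, n = 3 each). The related *sob* was in a LAD of both stages and *odd* in a LAD of SpG only.

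*slp1*, a forkhead gene of segmentation, had its TSS in a 4.2-kb gap of chr2L:3819601-3845700, and its neighbour *slp2* lay in the SpG LAD part of the same domain. *slp1* had 0.325 TPM in controls, and *slp2* had 0 reads in all libraries. *wg*, the Wnt ligand of segment polarity, lay in the 4.8-kb gap of chr2L:7304401-7314300, a domain of 9.9 kb with 27.3% covered, whereas *Wnt4* and *Wnt6* were in LADs of both stages and *Wnt10* in a LAD of SpCs only. *wg* had 0.384 TPM in Lam-KD and 0.297 TPM in controls. *nub*, a POU factor gene, was in a 1.8-kb gap with 0.340 TPM in Lam-KD and 0.196 TPM in controls. *gcm*, the glial fate switch, had a higher level, with 5.70 ± 0.404 TPM in Lam-KD and 5.62 ± 0.394 TPM in controls (SD, n = 3 each), from a 1.5-kb gap. Of the 6 regulators, *uif* and *gcm* had enough reads to be tested upon Lam-KD, and neither was called.

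Gene clusters were sometimes covered by a single fused LAD. The domain chr2L:13950601-13992300, over 8 SpG LADs, held the TSSs of 8 *nimrod* genes and of *He*. *Nimrod* genes encode EGF-repeat proteins, several of them with a role in phagocytosis by blood cells, and *He* encodes a blood cell surface protein. *NimA* was in its 6.0-kb gap and *NimB3* in a 1.8-kb gap, while *NimB1*, *NimB2*, *NimB4*, *NimB5*, *He*, *NimC1* and *NimC2* were in SpG LAD parts. Farther right, *NimC3* was in an inter-LAD and *NimC4* in a LAD of both stages. Control levels in the domain were between 0.270 TPM (*NimC1*) and 38.5 TPM (*NimB3*).

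The domain chr2L:12905101-12933900 held 4 testis adenylyl cyclase genes of the ACX family. *ACXC* had its TSS in a 4.2-kb gap, and *ACXB*, *ACXA* and *ACXE* in SpG LAD parts. *ACXC* had 83.2, 86.2 and 82.2 TPM in Lam-KD and 88.0, 97.3 and 99.1 TPM in controls, without overlap but also without a call (edgeR adjusted *P* = 0.0875). *ACXA* had 63.6 TPM in controls, *ACXB* 16.0 TPM and *ACXE* 11.5 TPM, so that the gene in the gap had the highest level of the cluster.

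Finally, Lam-KD was used to ask whether genes of filled gaps change when lamins are depleted, a measurement that the choice of fused LADs did not use. Among the 10318 genes tested, the share that passed was 6.41%, made up of 3.19% higher and 3.22% lower upon Lam-KD (edgeR adjusted *P* under 0.05 and a ratio of mean TPM over 1.5 either way). This share was 3.23% without Lam-KD replicate 1 and 3.49% without Lam-KD replicate 2. Of the 41 gap genes, 27 had enough reads to be tested: 0 were higher and 3 were lower (11.1%), *Vha100-5*, *CG31958* and *NimB3*. Higher gap genes were also 0 with DESeq2 and at an unadjusted *P* under 0.05 with the fold threshold. In the SpG LAD parts of fused LADs, 1 of 48 tested genes was higher and 9 were lower (20.8% changed). In LADs of both stages outside fused LADs 6 of 203 were higher and 18 lower (11.8%), in LADs of SpCs only outside fused LADs 3 of 76 were higher and 8 lower (14.5%), in LADs of SpG only 10 of 123 were higher and 2 lower (9.76%), and in inter-LADs of both stages 42 of 1057 were higher and 20 lower (5.87%). The median log2 fold change was -0.26 over the 27 gap genes, -0.32 in SpG LAD parts, -0.30 in LADs of both stages, -0.21 in LADs of SpCs only, -0.22 in LADs of SpG only, 0.06 in inter-LADs and 0.01 over all genes tested. A negative median was thus common to the LAD zones and not particular to filled gaps. The difference in these shares was not tested, and 3 calls among 27 genes are few.

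*Vha100-5*, which encodes a subunit of the proton pump V-ATPase, had 5.58, 5.09 and 4.48 TPM in Lam-KD and 10.8, 14.6 and 12.6 TPM in controls. The groups were far apart, and the gene was lower upon Lam-KD with a log2 fold change of -1.41 (SE 0.14, edgeR adjusted *P* = 0.000144). Its TSS lay in a 1.2-kb gap of chr2L:11736301-11748000, a domain of 11.7 kb with 82.0% covered. *CG31958* shares the 1.8-kb gap with *CG31960* and had 148, 124 and 161 TPM in Lam-KD and 238, 235 and 242 TPM in controls. It was lower by a log2 fold change of -0.86 (SE 0.12, edgeR adjusted *P* = 0.00157). *CG31958* is listed as *CR31958* in the current gene table, and whether its expected reads could be told from those of similar sequences was not tested.

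*NimB3* had 17.7, 24.4 and 18.6 TPM in Lam-KD and 45.9, 35.2 and 34.5 TPM in controls, again without overlap. It was lower by a log2 fold change of -1.07 (SE 0.22, edgeR adjusted *P* = 0.0111). This call did not hold without Lam-KD replicate 1 (adjusted *P* = 0.0662) or without Lam-KD replicate 3 (adjusted *P* = 0.05, not under the threshold), while those of *Vha100-5* and *CG31958* held without any single library. Of the other *nimrod* genes and *He* in the domain, those tested were not called, with *NimB1* at 1.58 TPM in Lam-KD and 3.16 TPM in controls (adjusted *P* = 0.0655) and *NimC2* at 23.6 TPM in Lam-KD and 18.4 TPM in controls (adjusted *P* = 0.531).

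In the SpG LAD parts, the gene that rose was *CG9505*, with 6.51 ± 0.946 TPM in Lam-KD and 1.09 ± 0.177 TPM in controls (SD, n = 3 each; log2 fold change 2.48, SE 0.20, edgeR adjusted *P* = 2.3e-05). Those that fell included *CG15293*, with 2.46 ± 0.536 TPM in Lam-KD and 12.1 ± 1.66 TPM in controls, *rho-6*, a gene of the rhomboid family, with 9.88 ± 2.31 TPM in Lam-KD and 23.6 ± 5.28 TPM in controls, and the glutamate transporter gene *Eaat1*, with 1.84 ± 0.334 TPM in Lam-KD and 3.66 ± 0.581 TPM in controls. *dp* and *ft*, the gene of the giant cadherin Fat, also fell, with control levels under 1 TPM.

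According to the study, larval testes came with a small part of fat body. The summed level of 6 fat body genes was between 4730 and 7590 TPM in Lam-KD libraries and between 5920 and 8850 TPM in controls, and that of 3 cyst cell genes between 37.8 and 41.8 TPM in Lam-KD and between 28.4 and 37.6 TPM in controls. The summed level of 8 SpC genes was between 3820 and 4170 TPM in Lam-KD and between 4000 and 4900 TPM in controls. The 2 germline genes found, *vas* and *bam*, summed to between 43.5 and 53.0 TPM in Lam-KD and between 24.8 and 50.1 TPM in controls, and no gene of these lists was at 0 in all libraries. Of these genes, the fat body gene *Lsp1gamma* was called lower, with 1140, 1354 and 919 TPM in Lam-KD and 2031, 1593 and 1652 TPM in controls (edgeR adjusted *P* = 0.0155), and the cyst cell gene *tj* higher, with 2.87, 2.30 and 2.45 TPM in Lam-KD and 1.39, 1.90 and 1.29 TPM in controls (edgeR adjusted *P* = 0.0452). The part of such differences in the calls above was not tested.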

How the data were processed

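Lam-DamID comprised 8 libraries and RNA-seq of larval testes 6, grouped by the stage, construct and genotype of the labels. For DamID the authors deposited LAD positions per stage on dm3/R5, called with an HMM on merged replicates in 300-bp bins. Fused LADs, filled gaps (kept at 1-based positions) and the same rule with stages exchanged were computed from these positions. A LAD belonged to the arm of its position, and a TSS to the gap that contains it. TSS positions and gene classes came from the study's gene table, whose copy is incomplete.

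RNA-seq files deposited by the authors hold expected counts per gene (Salmon, BDGP5.78), which are not normalized, and TPM from the same estimates. Rounded counts went into the quasi-likelihood test of edgeR 4.0.16 under R 4.3.3 after TMM scaling, and into DESeq2 1.42.0 as a variant. The filter on weak genes asked for 10 reads or more in 3 libraries or more, and *Lam* and *LamC*, the RNAi targets, were left out. A call needed a Benjamini-Hochberg adjusted *P* under 0.05 and a ratio of mean TPM over 1.5. The study describes the RNA-seq replicates as biological, each of many pooled testes, but does not say whether they came from separate crosses. *P* thus measures the spread between these libraries. The computation was tested on simulated counts. Other steps used Python 3.11.15, pandas 2.3.3, scipy 1.17.1 and matplotlib 3.10.9.

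Named genes are 2L gap genes that are testis-specific, have at least 20 TPM in controls, were called, or are in the lists of regulators or of *nimrod* and ACX genes. Named LADs are the 8 with the most SpG LADs, the 8 longest gaps and the 2 nearest to 90% on each side. Other genes and domains named were chosen after their values were seen. The members and lists were chosen with earlier results of these data known. Alternatives covered the overlap rule, the joining of LADs, the definition of gap genes, the normalization, filter and thresholds, left-out libraries and a replicate block.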

Additional observations from a re-analysis of the deposited data

Results flagged for a closer look

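Outside the arms described, the rule for fused LADs was met by 19 of the 1022 SpC LADs on the heterochromatic scaffolds, which no comparison above used: 7 on 3LHet, 6 on 2RHet, 3 on 3RHet, 2 on 2LHet, 1 on YHet and 0 on XHet. These domains were looked at because their number is above 3, and the list gives no value to test them with.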

How the results depend on the processing

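Of 88 alternative values, 31 moved, where a move means for counts and ratios a change of over 1.5 times, for medians of lengths and the share of 1-bin gaps one out of their 95% interval, for the uncovered share one out of its quartiles over LADs, and for the gap gene level one over the SD of 3 libraries. The other 57 did not. With 2 or more SpG LADs, 952 fused LADs of 12.6 kb (median) with 1490 gaps were found, 26.9% of 1 bin. With 4 or more, there were 124 of 28.2 kb with 453 gaps, 35.8% of 1 bin. At less than 80% covered, the median gap was 1800 bp and 28.2% were of 1 bin, and with single-bin SpG LADs removed 28.2% were. After joining SpG LADs up to 300 bp apart, there were 201 fused LADs of 23.4 kb with 471 gaps of a median of 2100 bp. With both stages joined, fused LADs had a median of 27.9 kb, gaps had 2400 bp, and the ratio of fused to split LADs was 2.27. Joining leaves 0% of gaps at 1 bin by construction. Genes overlapping a filled gap anywhere were 103, and the level of gap genes was 3.39 TPM in gaps of 600 bp or longer.

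Without a fold threshold, 548 genes were higher and 757 lower upon Lam-KD, and 6 gap genes were called. Leaving out 1 library gave between 145 and 495 higher genes, between 183 and 325 lower ones and between 2 and 3 gap genes, and a median control level of gap genes between 5.43 and 5.82 TPM. Lam-KD and control libraries of the same number deviated together weakly (r = 0.0592, 0.0732 and 0.177 across genes). Without the values for libraries of unlike numbers beside them, these do not decide whether the numbers pair the libraries. A replicate block gave 423 higher and 404 lower genes, against 329 and 332 without it, and 3 gap genes.

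Limits are the merged LAD calls without replicate values or depth, the bin of 300 bp, and genes of 2L only.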
